A study of Mus musculus with 10 samples.

Results

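The heterogeneous nuclear ribonucleoproteins (hnRNPs) described here are 10 genes chosen by name: Hnrnpd, Hnrnpdl, Hnrnpab, Hnrnpa1, Hnrnpa2b1, Hnrnph1, Hnrnph3, Hnrnpk, Hnrnpr and Hnrnpu. All 10 were found among the 38087 genes of the tables, 9 by symbol and Hnrnpdl by its gene identifier, because the tables carry its older symbol Hnrpdl. The proteins coat newly made RNA in the nucleus and help decide which exons are kept, how long an mRNA lasts and where it goes. Several are known to bind transcripts of their own genes and to alter how these are spliced. HnRNPs are abundant in fibroblasts, as in most dividing cells.

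Total RNA of wild-type NIH3T3 cells, an immortalised line of mouse embryo fibroblasts, was sequenced after depletion of ribosomal RNA. The cells were held at 37 °C for 4 h after seeding and then at a first temperature for 16 h. In the downshift course they then went from 38 to 33 °C, and in the upshift course from 33 to 38 °C. Each course has 5 samples, with 1 each at 0, 1, 3, 6 and 9 h, 10 samples in all, and the series asks how temperature acts on the splicing of Cirbp, a cold-inducible RNA-binding protein gene. The labels name no separate cultures and no replicate at any time, so each p-value below measures only the scatter of single samples around a line.

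In every sample 2 columns of exon reads and 2 of introns were summed; those of series 5 and 11 belong to the downshift course, and those of series 2 and 13 to the upshift course. The 1 and 3 h downshift samples have a further column of each kind, of series 10, which was left out of the sums and used in 1 other setting, where the numbers of members called did not change. Values and overlaps given per sample are of the summed columns unless series are named. Exon columns held 22403625 to 48004854 reads and intron columns 15313374 to 25233405. Per gene, a straight line on log2(hours + 1) was fitted in each course with edgeR's quasi-likelihood test. Its change between 0 and 9 h is given on the log2 scale with its standard error, and the difference is the downshift change minus the upshift change. Adjusted p-values are Benjamini-Hochberg values over all genes tested, 10175 on exons and 9378 on introns and on the exon-to-intron ratio, and a change was called at an adjusted p under 0.05. All 10 fibroblast markers averaged above 1 RPKM (reads scaled by exon length and library size), with sums of 6757 to 7801 RPKM in the downshift and 8766 to 10168 RPKM in the upshift samples, which do not overlap. The part of that gap between the courses in the results below was not tested. The 10 markers of other cell types summed to 2.32 to 3.01 RPKM in the downshift and 2.36 to 3.30 RPKM in the upshift samples, with Cd68, of macrophages, the highest at up to 1.84 RPKM and Myod1, of muscle cells, without a read. In whole-culture RNA, fewer cells of a type and less RNA per cell cannot be told apart.

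The members lie on 8 chromosomes, and Hnrnpd (chr5:99955935-99978938) and Hnrnpdl (chr5:100033577-100039664) are close to each other on the minus strand of chromosome 5 (GRCm38, GENCODE M21). Promoter sequences from RefSeq (GRCm38.p6) are printed for the 4 genes whose exon reads differed most between the shifts, the 250 bases before the start of transcription that RefSeq annotates, 5′ to 3′ on the gene's strand. GENCODE M21 starts Hnrnpdl (at 100039664) and Hnrnph3 (at 63024217) further upstream, so those windows lie within the GENCODE gene. Capitals mark matches, on either strand, to 9 short motifs: the heat shock element GAANNTTC, the CCAAT box, the ETS site CCGGAAG, the NRF1 motif GCATGCGC, the YY1 site AAGATGGCG, the E box CACGTG, the CRE TGACGTCA, the Sp1 box GGGCGG and the TATA box TATAAA. The first 2 genes had the higher exon change in the downshift and the last 2 in the upshift.
Hnrnpd chr5:99978939-99979188 (minus strand): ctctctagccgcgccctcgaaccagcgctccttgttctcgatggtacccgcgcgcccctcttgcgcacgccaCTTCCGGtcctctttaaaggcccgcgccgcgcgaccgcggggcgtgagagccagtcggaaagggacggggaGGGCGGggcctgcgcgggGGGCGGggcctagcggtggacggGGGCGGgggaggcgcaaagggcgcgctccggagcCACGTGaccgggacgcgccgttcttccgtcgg
Hnrnpdl chr5:100039223-100039472 (minus strand): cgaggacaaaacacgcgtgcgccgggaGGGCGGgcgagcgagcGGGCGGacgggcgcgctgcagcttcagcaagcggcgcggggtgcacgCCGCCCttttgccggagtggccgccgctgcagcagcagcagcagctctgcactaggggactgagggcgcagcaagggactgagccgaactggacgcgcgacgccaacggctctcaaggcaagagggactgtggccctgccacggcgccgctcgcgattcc
Hnrnph1 chr11:50376740-50376989 (plus strand): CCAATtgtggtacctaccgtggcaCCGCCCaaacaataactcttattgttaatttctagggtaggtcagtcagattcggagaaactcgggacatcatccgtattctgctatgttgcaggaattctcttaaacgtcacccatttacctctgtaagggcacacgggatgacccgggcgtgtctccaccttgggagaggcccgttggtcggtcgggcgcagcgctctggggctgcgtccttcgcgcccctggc
Hnrnph3 chr10:63023850-63024099 (minus strand): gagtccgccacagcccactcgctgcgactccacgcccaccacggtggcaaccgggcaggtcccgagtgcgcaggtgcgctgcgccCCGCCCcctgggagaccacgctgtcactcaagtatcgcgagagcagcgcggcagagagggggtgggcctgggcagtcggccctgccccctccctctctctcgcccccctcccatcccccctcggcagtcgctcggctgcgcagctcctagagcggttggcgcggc

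These 4 windows, taken with the 50 bases after the start, were 72.3%, 72.7%, 58.0% and 73.0% G or C for Hnrnpd, Hnrnpdl, Hnrnph1 and Hnrnph3, where the median of 32851 mouse windows is 52.7%. They held 45, 42, 24 and 32 CpG dinucleotides against a median of 7. The Sp1 box was in the windows of 8 of the 10 members and in 35.7% of all windows, and the CCAAT box in 6 of 10 members and 37.4% of all. A heat shock element was matched in 1 member, Hnrnpa2b1, 12 bases after the start, and in 7.86% of all windows. The ETS site, the E box and the TATA box each matched in 1 member, the first 2 in Hnrnpd and the last in Hnrnpab, and in 8.86%, 7.15% and 13.6% of all windows. The NRF1 motif, the YY1 site and the CRE matched in 0 of the 10 members and in 2.71%, 1.40% and 1.79% of all windows. No listed motif was thus found in both promoters of a pair and in neither of the other pair. RefSeq lists 5 windows for Hnrnph1, of which 1 is printed.

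Among themselves the members spanned a wide range of levels per length. Averaged over the 10 samples, exon RPKM was 199 ± 12.4 (SD) for Hnrnpab, 178 ± 34.4 for Hnrnpa1, 97.2 ± 10.7 for Hnrnpk and 75.6 ± 14.3 for Hnrnpa2b1. It was 71.5 ± 6.82 for Hnrnpu, 67.5 ± 12.9 for Hnrnph1 and 49.4 ± 16.0 for Hnrnpdl. The lowest were Hnrnpd at 6.80 ± 1.47, Hnrnph3 at 5.75 ± 1.34 and Hnrnpr at 3.89 ± 0.441. The ranges over samples separated Hnrnpa1 from Hnrnpk and Hnrnpdl from Hnrnpd, and all other neighbours in this order overlapped. The lengths count every exon of every annotated isoform, 22199 bases for Hnrnpr and 2782 for Hnrnpab, which lowers RPKM where long exons are little used. They come from GENCODE M21, and the annotation behind the deposited counts is not stated. The order above therefore holds for these lengths only.

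On exon reads, 5 of the 10 members were called with a positive difference (Hnrnpdl, Hnrnpd, Hnrnpr, Hnrnpk and Hnrnpab), against 25.2% of all genes tested. Another 3 were called with a negative difference (Hnrnph3, Hnrnph1 and Hnrnpa2b1), against 21.8% of all genes. A positive difference is a higher change in the downshift than in the upshift, and not a higher level. Hnrnpa1 and Hnrnpu were not called. The members' median difference was 0.40, and that of all genes 0.04. In the downshift alone 4 members rose, where 16.1% of all genes did, and 0 fell, where 16.2% did. In the upshift alone 3 members rose and 4 fell, against 14.5% and 18.8% of all genes. Without the 0 h or the 9 h downshift sample, 1 and 2 members rose in the downshift, and without the 0 h upshift sample 2 rose and 1 fell in the upshift. For the difference 6 members were called within series 2 and 5, and 8 within series 11 and 13, where Hnrnpa1 was called and Hnrnpa2b1 was not. All 10 members kept the sign of their exon difference under each of the 22 other settings tried.

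**Figure D1:**
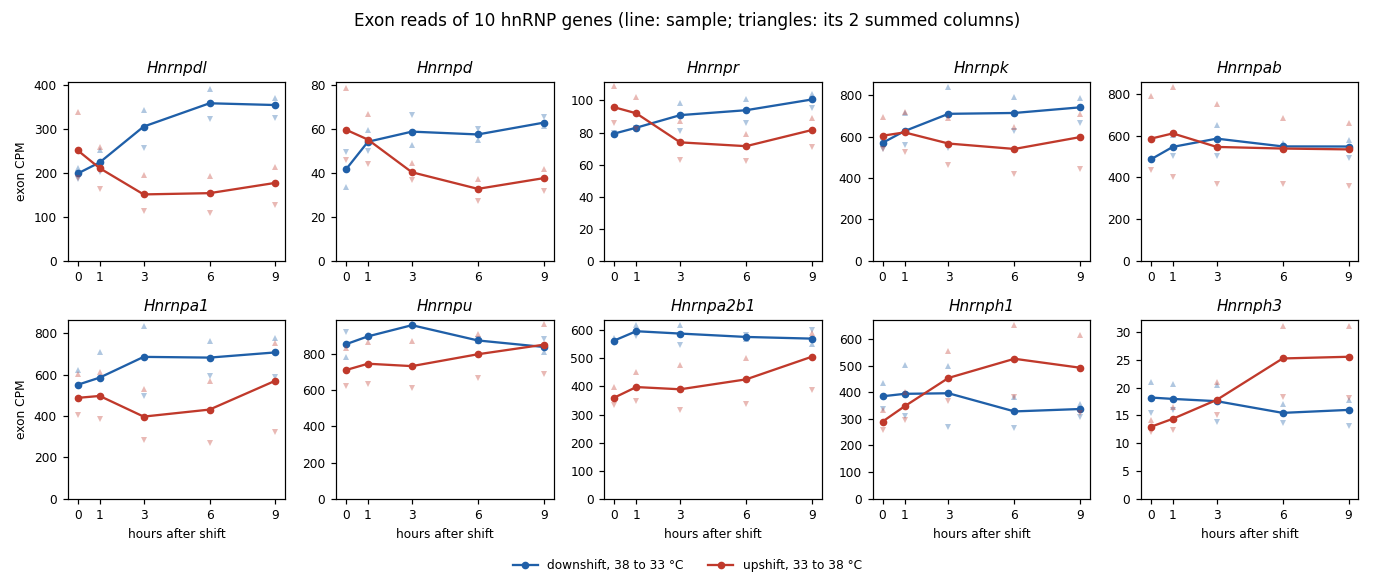
Exon CPM (y axis, from 0) against hours after the shift (x axis) for the 10 hnRNP genes; lines join the 5 samples of the downshift (blue) and of the upshift (red), and faint triangles are the 2 summed columns of each sample (upward for series 5 and 2, downward for 11 and 13; series 10 is not drawn). The lines of Hnrnpdl, Hnrnpd, Hnrnpr, Hnrnpk and Hnrnpab cross with the downshift ending higher. Those of Hnrnph1, Hnrnph3 and Hnrnpu cross with the upshift ending higher. For Hnrnpab and Hnrnpu the courses end close to each other.

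Hnrnpd, also known as AUF1, binds AU-rich elements and acts in the decay of many short-lived mRNAs. Its exon reads were 41.6, 54.2, 58.8, 57.5 and 62.9 CPM (reads scaled to library size) at 0, 1, 3, 6 and 9 h of the downshift, and 59.6, 55.1, 40.3, 32.7 and 37.6 CPM at the same times of the upshift. The downshift samples were highest at 9 h and the upshift samples lowest at 6 h, and from 3 h on the courses did not overlap. Hnrnpd rose by 0.53 ± 0.14 in the downshift (adjusted p = 0.0204) and changed by -0.91 ± 0.14 in the upshift (adjusted p = 0.00144), a difference of 1.43 ± 0.20 (adjusted p = 0.000429). That difference was 1.68 in series 2 and 5 alone and 1.128 in series 11 and 13 alone, called in both. The downshift change alone was 0.61 (adjusted p = 0.0840) and 0.44 (adjusted p = 0.0597) in those pairs, and 0.27 (adjusted p = 0.366) without the 0 h sample, so that call rests on the 0 h sample and on the summed columns. It was also lost without the 9 h downshift sample, at 0.56 (adjusted p = 0.0757).

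Hnrnpdl, a close relative of Hnrnpd, is an RNA-binding protein known to control the splicing and stability of its own transcript. It had 198, 223, 305, 358 and 354 exon CPM in the downshift samples and 251, 210.3, 151, 154 and 177 exon CPM in the upshift samples. The downshift samples climbed up to 6 h and the upshift samples were lowest at 3 h, with no overlap from 3 h on. Hnrnpdl had the most positive difference among the members, 1.61 ± 0.22 (adjusted p = 0.000353), made of 0.90 ± 0.16 in the downshift (adjusted p = 0.00358) and -0.71 ± 0.15 in the upshift (adjusted p = 0.00576). It was 1.65 in series 2 and 5 alone and 1.62 in series 11 and 13 alone. Without the 0 h upshift sample the upshift change was -0.49 and was no longer called (adjusted p = 0.146).

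Hnrnpr, which acts in mRNA processing and transport, moved the same way with a smaller size. Its exon reads were 79.3, 83.0, 90.9, 93.9 and 101 CPM in the downshift and 95.8, 92.0, 73.9, 71.5 and 81.6 CPM in the upshift, and among the samples from 3 h on, each downshift sample was above each upshift sample. The difference was 0.71 ± 0.15 (adjusted p = 0.00329), and 0.81 in series 2 and 5 alone and 0.62 in series 11 and 13 alone. Hnrnpr rose by 0.31 ± 0.10 in the downshift (adjusted p = 0.0428) and changed by -0.40 ± 0.10 in the upshift (adjusted p = 0.0155). The downshift call was kept in 8 of 21 other settings, and was lost without any single downshift sample, at 0.29 to 0.33, and without the 0 h or the 1 h upshift sample. The upshift call was lost without the 0 h upshift sample (-0.35) and without the 6 h one (-0.33).

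Hnrnpk binds C-rich RNA and DNA through its KH domains. It had 569, 626, 709.5, 714 and 741 exon CPM in the downshift and 604, 619.8, 566, 539.9 and 597 exon CPM in the upshift, so that the downshift samples from 3 h on were above all the upshift samples. Hnrnpk rose by 0.33 ± 0.07 in the downshift (adjusted p = 0.00901), and its upshift change of -0.17 ± 0.07 was not called (adjusted p = 0.0935). Its difference of 0.51 ± 0.10 (adjusted p = 0.00326) was 0.44 in series 2 and 5 alone and 0.64 in series 11 and 13 alone, and the first of these was not called (adjusted p = 0.0642). Without the 0 h downshift sample the downshift change was 0.23 and not called.

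Hnrnpab, a relative of Hnrnpd that binds both RNA and single-stranded DNA, had a smaller difference. Its exon reads were 486, 546, 585, 548 and 548 CPM in the downshift and 585, 610.4, 546, 538 and 534 CPM in the upshift. In these summed columns the courses overlapped, but within the series pairs they did not. The upshift was above in series 2 and 5 (662 to 831 against 490 to 650 CPM). The downshift was above in series 11 and 13 (481 to 530 against 359 to 435 CPM). The difference of 0.43 ± 0.12 was called (adjusted p = 0.0127), with a downshift change of 0.13 ± 0.08 (adjusted p = 0.260) and an upshift change of -0.30 ± 0.08 (adjusted p = 0.0188). It was 0.48 in series 2 and 5 alone and 0.35 in series 11 and 13 alone, and the first was not called (adjusted p = 0.0739). Without the 0 h downshift sample it was 0.22 (adjusted p = 0.164). The upshift call was lost without the 0, 1, 6 or 9 h upshift sample, at -0.40 to -0.27.

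Hnrnpa1 and Hnrnpa2b1 are related proteins that, among other roles, bind splicing silencers. Hnrnpa1 had 551, 586, 686, 683 and 708 exon CPM in the downshift and 488, 497, 397, 431 and 571 exon CPM in the upshift. The summed upshift samples were lowest at 3 h and highest at 9 h, as was series 2 (528 and 753 CPM). Series 13 was instead lowest at 6 h (270 CPM) and highest at 0 h (402 CPM). The difference of Hnrnpa1, 0.37 ± 0.22, was not called (adjusted p = 0.180). It was 0.15 in series 2 and 5 alone and 0.82 in series 11 and 13 alone, and was called in the second (adjusted p = 0.00915) and without the 9 h upshift sample (0.71, adjusted p = 0.00283). Hnrnpa1 has many near-identical pseudogene copies, and the sources used here do not state how reads shared with them were counted.

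Hnrnpa2b1 had 564, 597, 589, 577 and 571 exon CPM in the downshift, nearly flat, and 360.2, 398, 390.0, 425 and 506 exon CPM in the upshift, where the 9 h sample was the highest. In the summed columns all downshift samples were above all upshift samples. Within series 2 and 5 they overlapped, with 552 CPM at 9 h of the downshift and 593 CPM at 9 h of the upshift. The difference of -0.34 ± 0.12 (adjusted p = 0.0359) came with an upshift rise of 0.33 ± 0.08 (adjusted p = 0.0123) and a downshift change of -0.0044 ± 0.08 (adjusted p = 0.972). It was -0.58 in series 2 and 5 alone and -0.04 in series 11 and 13 alone (adjusted p = 0.829 in the second), and the upshift rise 0.50 and 0.13 in the same pairs. The difference kept its call in 12 of 22 other settings and lost it without the downshift samples at 1, 6 or 9 h or the upshift samples at 0 or 9 h, where it was -0.39 to -0.20. The upshift rise was lost without the 0 h (0.38) or the 9 h upshift sample (0.19).

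Hnrnph1 and Hnrnph3 encode proteins of the H family, which bind G-rich stretches of RNA and act in splicing. Hnrnph1 had 384, 394, 396, 328 and 337 exon CPM in the downshift samples and 289, 347, 453, 525 and 492 exon CPM in the upshift samples. Hnrnph1 was highest at 6 h of the upshift, and the 3, 6 and 9 h upshift samples were above every downshift sample, though within series 11 and 13 the 0 h downshift value of 337 CPM was above the 9 h upshift value of 323 CPM. It rose by 0.78 ± 0.12 in the upshift (adjusted p = 0.00170), and the downshift change of -0.31 ± 0.12 was not called (adjusted p = 0.0735). The difference was -1.09 ± 0.17 (adjusted p = 0.000844), and -1.36 in series 2 and 5 alone and -0.67 in series 11 and 13 alone, called in both. The upshift rise was 1.01 (adjusted p = 0.00230) and 0.45 (adjusted p = 0.0611) in those pairs.

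Hnrnph3 had few exon reads, with 18.2, 18.0, 17.6, 15.4 and 16.0 exon CPM in the downshift and 12.9, 14.4, 17.8, 25.3 and 25.6 exon CPM in the upshift. Its upshift samples at 6 and 9 h were the highest of the 10 and those at 0 and 1 h the lowest, with the 3 h sample within the range of the downshift. The most negative difference among the members was that of Hnrnph3, -1.29 ± 0.17 (adjusted p = 0.000335), and it was -1.55 in series 2 and 5 alone and -0.97 in series 11 and 13 alone. Hnrnph3 rose by 1.00 ± 0.12 in the upshift (adjusted p = 0.000580), and its downshift change of -0.29 ± 0.12 was not called (adjusted p = 0.0949).

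Hnrnpu, the scaffold attachment factor that binds both RNA and chromatin, had 857, 900.2, 962, 878 and 841 exon CPM in the downshift and 713, 748, 735, 801 and 854 exon CPM in the upshift. The downshift samples were highest at 3 h, and in the summed columns the courses came to nearly the same level at 9 h. The series did not: at 9 h series 2 of the upshift had 972 CPM and series 5 of the downshift 814 CPM. Series 13 of the upshift had 694 CPM and series 11 of the downshift 887 CPM. The difference of Hnrnpu, -0.17 ± 0.11, was not called (adjusted p = 0.230), nor was it within series 2 and 5 (-0.15) or 11 and 13 (-0.19). The exon differences of Hnrnpd, Hnrnpdl, Hnrnpr, Hnrnph1 and Hnrnph3 were called under all 22 other settings.

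**Figure D2:**
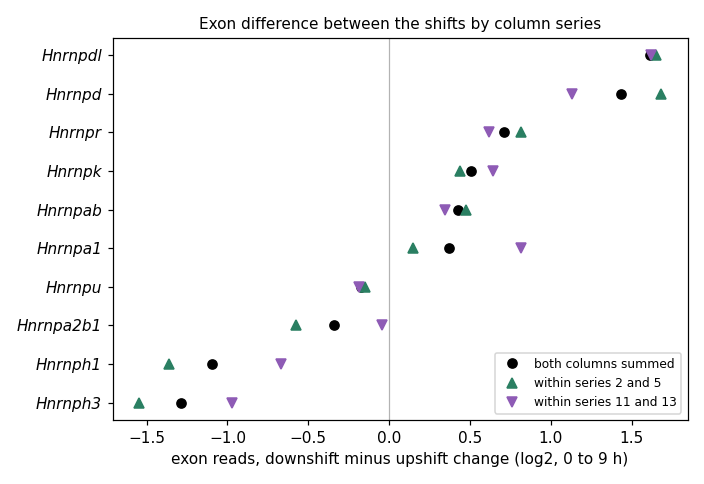
Exon difference between the shifts (x axis, log2, downshift minus upshift change over 9 h) for each member (y axis); circles are from both columns of each sample summed, upward triangles from series 2 and 5 alone, and downward triangles from series 11 and 13 alone. For each member all 3 symbols lie on the same side of 0, with Hnrnpa2b1 at -0.04 within series 11 and 13 and Hnrnpa1 between 0.15 and 0.82.

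Whether a gene's downshift and upshift changes mirrored each other was read from their sum, which is 0 for exact mirror images; this contrast was chosen after seeing the data. No member was called (0 of 10, against 3.45% of all genes), with 3 members at an unadjusted p under 0.05 by edgeR. DESeq2 and limma each called 1. Hnrnph3 had the largest sum, 0.72 ± 0.17 (adjusted p = 0.0507), followed by Hnrnph1 at 0.47 ± 0.17 (adjusted p = 0.175). Hnrnpd had -0.38 ± 0.20 and Hnrnpdl 0.18 ± 0.21.

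Intron reads come largely from transcripts not yet spliced, and fewer members were called on them. Intron CPM below are scaled by the library sizes of the exon reads, whereas the intron tests scale introns by their own. CPM and tested changes can therefore differ in size and in sign. In neither shift alone was a member called, where 1.72% of all genes were in the downshift and 2.16% in the upshift. By edgeR, 3 members in the downshift and 4 in the upshift had an unadjusted p under 0.05, and DESeq2 called 1 in the downshift and 0 in the upshift, and limma 0 in both. For the difference 2 members were called positive, against 4.18% of all genes, and 1 negative, against 3.2%. The members' median intron difference was 0.20, and that of all genes 0.05.

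Hnrnpdl had 14.9, 15.3, 19.3, 18.2 and 18.0 intron CPM in the downshift and 14.0, 14.1, 12.8, 12.4 and 14.2 intron CPM in the upshift. With this scaling by exon reads, every downshift sample was above every upshift sample. Within series 2 and 5 the courses overlapped, with 15.8 CPM at 0 h of the downshift and 18.8 CPM at 0 h of the upshift. Its intron difference was 0.78 ± 0.20 (adjusted p = 0.0443). Hnrnpr had 51.2, 61.4, 59.7, 56.9 and 60.6 intron CPM in the downshift and 57.7, 51.9, 50.1, 51.9 and 52.0 intron CPM in the upshift, with overlap, and a difference of 0.58 ± 0.16 (adjusted p = 0.0491). Hnrnph3 went the other way, with 27.4, 20.5, 19.4, 17.6 and 18.7 intron CPM in the downshift and 14.95, 20.7, 21.0, 23.1 and 24.8 intron CPM in the upshift. Its downshift samples were highest at 0 h and its upshift samples lowest at 0 h, and the difference was -0.87 ± 0.21 (adjusted p = 0.0350). The 3 differences were 0.89, 0.68 and -0.92 for Hnrnpdl, Hnrnpr and Hnrnph3 within series 2 and 5, where that of Hnrnpr was not called, and 0.63, 0.52 and -0.84 within series 11 and 13, where none of the 3 was called. They kept their calls in 10, 7 and 13 of 23 other settings. With the exon factors used for introns, where the all-gene median was -0.27, the difference was 0.46 for Hnrnpdl (adjusted p = 0.132), 0.26 for Hnrnpr (adjusted p = 0.309) and -1.19 for Hnrnph3 (adjusted p = 0.00754). Leaving out the 0 or 6 h downshift sample, or the 0, 3, 6 or 9 h upshift sample, ended all 3 calls, at 0.72 to 0.90 for Hnrnpdl, 0.35 to 0.60 for Hnrnpr and -0.92 to -0.57 for Hnrnph3; Hnrnpdl also lost its call without the 1 h downshift sample, Hnrnpr without the 3 h one, and Hnrnpr and Hnrnph3 without the 9 h one.

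The intron reads of Hnrnpd gave another picture than its exon reads, at 102, 114, 102, 85.3 and 92.0 CPM in the downshift and 84.7, 80.1, 90.3, 89.1 and 89.8 CPM in the upshift. They were highest at 1 h of the downshift and nearly flat in the upshift, and their difference of -0.09 ± 0.16 was not called (adjusted p = 0.743). Hnrnph1 had 41.5, 35.4, 42.5, 41.0 and 44.5 intron CPM in the downshift and 33.2, 40.5, 41.1, 40.2 and 42.5 intron CPM in the upshift, which overlapped. Its difference was 0.21 ± 0.19 (adjusted p = 0.521) with the introns' own factors, and -0.12 with the exon factors that these CPM use. The other 5 members had intron differences between 0.13 (Hnrnpa2b1) and 0.54 (Hnrnpab), none called.

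**Figure D3:**
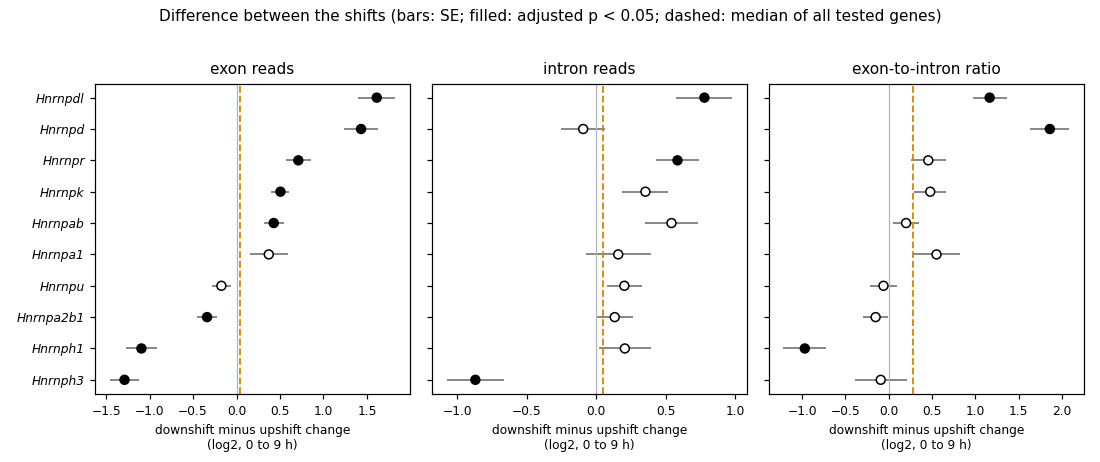
Difference between the shifts (x axis, log2, downshift minus upshift change over 9 h) for exon reads, intron reads and their ratio, for each member (y axis); bars are 1 SE, filled points have an adjusted p under 0.05, and the dashed line is the median of all tested genes. Hnrnpd stands far right for exons and ratio but near 0 for introns, while Hnrnph3 lies left for exons and introns and near 0 for the ratio.

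The exon-to-intron ratio sets exon against intron reads of the same gene in the same sample, and was tested as the difference in slope between the read types. Across all genes the median ratio change was 0.12 in the downshift and -0.17 in the upshift, with a median difference of 0.28. The ratio tests below are against 0 and not against these medians, which are given for comparison. Of the 10 members, 2 were called with a positive difference, against 18.4% of all genes, and 1 with a negative one, against 2.72%. The members' median was 0.33. In the downshift alone 2 rose and 0 fell, where 2.82% of all genes rose and 0.522% fell. In the upshift alone 0 rose and 2 fell, against 0.32% and 5.49% of all genes. When intron reads were scaled by their own factors, the all-gene median difference was -0.04. Of called genes 46.6% then had a positive difference, against 87.1% with the exon factors.

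Hnrnpd had the largest ratio difference of the members. It had fewer exon than intron reads in every sample, with 0.408, 0.474, 0.578, 0.674 and 0.683 exon reads per intron read in the downshift and 0.704, 0.689, 0.446, 0.367 and 0.419 in the upshift. The ratio was higher at each later downshift time, the 3, 6 and 9 h upshift samples were low, and at these times the courses did not overlap, except within series 2 and 5, where the lowest downshift ratio was 0.494 at 3 h and the highest upshift ratio 0.515 at 3 h. The ratio rose by 0.83 ± 0.16 in the downshift (adjusted p = 0.0235) and changed by -1.03 ± 0.16 in the upshift (adjusted p = 0.00893). The difference was 1.86 ± 0.22 (adjusted p = 0.000848), 2.17 in series 2 and 5 alone and 1.44 in series 11 and 13 alone, and 1.53 with introns scaled by their own factors. It was called under all 23 other settings. The downshift rise was not called within series 11 and 13 (0.58, against 1.05 within series 2 and 5) or without the 0, 6 or 9 h downshift sample (0.79 to 0.90), and the upshift fall was not called within series 11 and 13 (-0.86, against -1.12 within series 2 and 5) or without the 6 h upshift sample (-0.91). A transcript antisense to Hnrnpd, Gm17092, overlaps it, and the sources used here do not state whether counting used strand.

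Hnrnpdl had 13.3, 14.6, 15.8, 19.6 and 19.6 exon reads per intron read in the downshift and 17.9, 14.9, 11.8, 12.3 and 12.4 in the upshift, with the downshift samples high at 6 and 9 h and the upshift samples low from 3 h on. Its ratio difference was 1.16 ± 0.20 (adjusted p = 0.00360), 1.12 in series 2 and 5 alone and 1.25 in series 11 and 13 alone, and 0.84 with introns scaled by their own factors, and was called under all 23 other settings. The single-shift ratio changes of Hnrnpdl, 0.59 ± 0.14 in the downshift (adjusted p = 0.0429) and -0.57 ± 0.14 in the upshift (adjusted p = 0.0374), kept their calls in 8 and 11 of 22 other settings. Within series 2 and 5 they were 0.64 and -0.48, and within series 11 and 13 0.54 and -0.71. Leaving out any single downshift sample, or the 6 or 9 h upshift sample, ended the downshift call at 0.53 to 0.67. Leaving out the 6 or 9 h downshift sample, or the 0, 6 or 9 h upshift sample, ended the upshift call at -0.72 to -0.37.

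Hnrnph1 ran against the all-gene shift of the ratio. It had 9.27, 11.1, 9.31, 7.98 and 7.56 exon reads per intron read in the downshift and 8.72, 8.56, 11.04, 13.1 and 11.6 in the upshift. The 6 and 9 h downshift samples were the lowest and the 6 and 9 h upshift samples the highest of the 10, though within series 2 and 5 the 1 h downshift ratio was 12.1 and the 9 h upshift ratio 12.0. The difference was -0.97 ± 0.25 (adjusted p = 0.0199), -1.04 in series 2 and 5 alone and -0.86 in series 11 and 13 alone (adjusted p = 0.0687 in the second), and -1.29 with introns scaled by their own factors. It was not called without the 6 h (-0.94) or 9 h (-0.87) downshift sample or the 6 h upshift sample (-0.87). Hnrnph3 had 0.663, 0.876, 0.903, 0.879 and 0.854 exon reads per intron read in the downshift and 0.865, 0.696, 0.846, 1.09 and 1.03 in the upshift. Its ratio difference of -0.09 ± 0.30 was not called (adjusted p = 0.845).

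**Figure D4:**
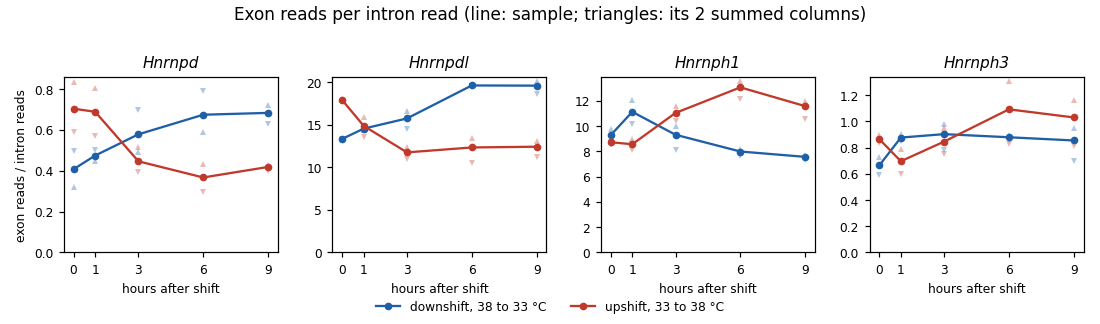
Exon reads per intron read (y axis, from 0) against hours after the shift (x axis) for Hnrnpd, Hnrnpdl, Hnrnph1 and Hnrnph3; lines join the samples of the downshift (blue) and the upshift (red), and faint triangles are the 2 summed columns of each sample (upward for series 5 and 2, downward for 11 and 13; series 10 is not drawn). The courses of Hnrnpd and Hnrnpdl cross between 0 and 3 h, those of Hnrnph1 cross the other way, and those of Hnrnph3 stay between 0.663 and 1.09.

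The ratios of the other 6 members were not called. Their ratio differences ran from -0.15 for Hnrnpa2b1 to 0.55 for Hnrnpa1, with Hnrnpk at 0.48 ± 0.18 (adjusted p = 0.0817) and Hnrnpr at 0.46 ± 0.20 (adjusted p = 0.131). Hnrnpk kept 12.9 to 16.8 exon reads per intron read over the 10 samples, Hnrnpab 9.38 to 10.6, Hnrnpu 4.83 to 5.67 and Hnrnpa2b1 3.90 to 4.91. Genes on the opposite strand overlap Hnrnpab (Phykpl), Hnrnph3 (Rufy2), Hnrnpk (Rmi1), Hnrnpr (Gm27022) and Hnrnpu (Cox20), and the microRNA gene Mir7-1 lies within Hnrnpk on its strand.

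Over the 10 samples, which share their libraries between genes, the log2 exon CPM of Hnrnpd, Hnrnpdl and Hnrnpr correlated with each other at 0.87 to 0.92 (Pearson's r). Hnrnph1 correlated with Hnrnph3 at 0.94. These are the genes whose exon difference was called under all 22 other settings, grouped by its sign. Between the first 3 genes and the last 2 the 6 correlations ran from -0.87 to -0.58. Other pairs were also high, with Hnrnpdl and Hnrnpk at 0.94, Hnrnpa2b1 and Hnrnpu at 0.94, Hnrnpa1 and Hnrnpk at 0.88 and Hnrnpdl and Hnrnpa1 at 0.86. Some pairs whose called differences share a sign were low. Hnrnpdl and Hnrnpab were at 0.28, Hnrnpa2b1 and Hnrnph1 at -0.0027, and Hnrnpa2b1 and Hnrnph3 at 0.17. Over all 45 pairs of members the correlations ran from -0.87 to 0.94, with a median of 0.28. Among all genes tested, 4 of the 5 most like Hnrnpdl over the 10 samples were Tceal8 (r = 0.993), Iqgap1, a scaffold protein of the cytoskeleton (0.988), Tmem65 (0.987) and Chuk, a kinase of the NF-kB pathway (0.986). Those most like Hnrnph3 were Stx7, a syntaxin of endosomes (r = 0.971), Wee1, a kinase that holds back entry into mitosis (0.956), Tmem237 (0.950), Echdc1 (0.949) and Ift80, of intraflagellar transport (0.947).

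A list of 21 other hnRNP and related genes was read in the same way, and 20 of them passed the exon filter, Raly being too low. On exons 6 were called with a positive difference, 6 with a negative one and 8 were not called, against 25.2% and 21.8% of all genes positive and negative. The median difference of the list was 0.12, and that of all genes 0.04. In the downshift alone 5 rose and 2 fell, where 16.1% and 16.2% of all genes did, and in the upshift alone 4 rose and 3 fell, against 14.5% and 18.8%. The most positive called differences were those of Ptbp2 (0.97 ± 0.24, adjusted p = 0.00852) and Ptbp3 (0.80 ± 0.12, adjusted p = 0.000686), polypyrimidine tract-binding splicing regulators, and Ewsr1 (0.88 ± 0.24, adjusted p = 0.0145), an RNA-binding protein of the FET family. The most negative were those of Hnrnpc (-1.12 ± 0.25, adjusted p = 0.00479), which binds uridine-rich tracts, Hnrnpul2 (-0.80 ± 0.13, adjusted p = 0.000826), a relative of Hnrnpu, and Taf15 (-0.74 ± 0.17, adjusted p = 0.00628), another FET protein. On the ratio 7 of 18 were called with a positive difference and 0 with a negative one, against 18.4% and 2.72% of all genes. The median of the 18 was 0.31 and that of all genes 0.28, and 4 of 18 were called with introns scaled by their own factors. On introns 0 of 18 were called in the downshift, in the upshift or for the difference. Of all genes 1.72% and 2.16% were called in the shifts, and 4.18% and 3.2% had a positive and a negative called difference. By edgeR 1 of the 18 in each shift and 2 for the difference had an unadjusted p under 0.05. DESeq2 called 0 in each shift and 1 for the difference, and limma 0 in all of these.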

How the data were processed

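Total RNA-seq of 10 NIH3T3 samples was analysed, 1 sample per time in each of 2 temperature courses, grouped by course and time from the labels. The libraries were paired-end and strand-specific per the labels' protocols, and STAR, bedtools and the mm10 build are named, with no versions, per the submitters' processing notes. The deposited tables hold estimated counts of exon and of intron reads per gene as made by the authors; the totals differ between columns and 16.1% of values above 0 are whole within 1e-06, although the file names speak of RPKM. The sources used here do not state the annotation, the rule for shared reads or the use of strand. How the numbered column series of a sample differ is not stated either.

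Estimated counts were rounded to whole numbers, and the 2 complete columns of each sample were summed without scaling. The TMM-scaled library sizes of the columns were summed too, and each gene's shares of the 2 series entered as an offset. The column with more reads thus weighs more in the values per sample. The series 10 columns of the 1 and 3 h downshift samples were left out of the sums. Each series lies in 1 course, and nothing in the labels or headers pairs them. Series 2 was set beside 5, and 11 beside 13, from the data: over 10260 genes with a mean exon count of at least 100, the log2 differences of series 5 from 11 correlated with those of series 2 from 13 at 0.41 to 0.64 over 25 pairs of samples. A difference between 2 paired series cannot be told apart from one between the courses. In all, 0 columns lacked a sample. Genes were kept at a mean exon RPKM of at least 1 and, for introns and the ratio, a mean intron RPKM of at least 0.05, with lengths from GENCODE M21 for 36308 of 38087 genes. All 10 members passed both filters. The quasi-likelihood test of edgeR 4.0.16 (R 4.3.3) gave slopes on log2(hours + 1) per course, scaled to 9 h, and two-sided p-values, Benjamini-Hochberg adjusted over all genes tested. In the tests introns were scaled by their own TMM factors, except in the ratio, which used those of the exons for both read types. The printed intron CPM used the exon factors as well. The fits were tested on simulated data.

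DESeq2 1.42.0, limma 3.58.1, other scalings, filters, time scales and batches, and each sample left out in turn, were tried as alternatives. The rule for named genes was all members, the 3 largest called exon differences in each direction of the list of related genes, and the 5 genes most correlated with the members of most positive and most negative difference. Of these, 1 gene that this rule selects is not reported here. The members and lists were chosen with earlier results of these data known. Promoter windows and motifs were read from RefSeq (GRCm38.p6) sequence, for which all 10 members matched by symbol.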

Additional observations from a re-analysis of the deposited data

How the results depend on the processing

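With 1 sample per time, each call rests on the scatter of 10 single samples around 1 line per course. Both courses share 1 estimate of that spread, so leaving out a sample of 1 course can change calls in the other. Small changes can therefore be missed, and whether sequencing depth adds to this was not tested. The count of members with an exon difference was 8 and stayed between 6 and 8, and that of the ratio difference was 3 and stayed at 2 or 3. Settings that scale introns otherwise, and the sum of the shifts, were chosen after seeing the data. The cause of the changes below was not tested.

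Of members called on exons in the downshift (4), 2 were left within series 11 and 13, 2 with linear hours and 1 with a step of 0 h against 3, 6 and 9 h; leaving out 1 sample gave 1 to 6. For the upshift (7) the step left 3, and leaving out 1 sample gave 3 to 7. For the sum (0), series 2 and 5, the DESeq2 Wald test, limma with either pseudocount and no offset for the mix of series gave 1 each, and leaving out 1 sample gave 0 or 1. Members called on the intron difference (3) were 0 within series 11 and 13, 0 with linear hours, 1 with no filter and 1 with the exon factors for introns, and 0 to 3 with 1 sample left out. On introns, DESeq2 called 1 and the step 3 in the downshift (0), and the step and the exon factors 1 each in the upshift (0). On the ratio in the downshift (2), series 11 and 13, limma with pseudocounts of 0.1 and 0.01, linear hours and the introns' own factors gave 0, limma with 1 and 0.1, no filter and the step gave 1, and leaving out 1 sample gave 0 to 2. In the upshift (2), series 11 and 13 gave 0, series 2 and 5, limma with either pseudocount, linear hours and the introns' own factors gave 1, and leaving out 1 sample gave 0 to 3.

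With the time point as a replicate block, which pairs samples only by time, 0 members kept an intron difference, 7 an exon difference and 2 a ratio difference; Hnrnpa2b1 lost its exon call (-0.33, adjusted p = 0.0614) and Hnrnph1 its ratio call (-0.97, adjusted p = 0.0853). Samples of the same time deviated from the lines with correlations of -0.24 to -0.08. Courses that bend in opposite directions would also give negative values. These correlations therefore cannot show whether the times pair the samples.

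Uncalled differences that changed sign were those of Hnrnpa1 on introns (-0.0092 with linear hours, -0.17 with the exon factors, and -0.24 to 0.32 with 1 sample left out, negative without either 0 h sample), Hnrnpa2b1 on introns (-0.048 within series 2 and 5, -0.18 with the exon factors), Hnrnpd on introns (0.040 with the step), and Hnrnph1 (-0.12) and Hnrnpu (-0.11) on introns with the exon factors. On the ratio they were Hnrnpab (-0.11 with the introns' own factors), Hnrnpu (0.021 within series 2 and 5, and -0.10 to 0.041 with 1 sample left out) and Hnrnph3 (0.13 within series 11 and 13, 0.063 with limma at pseudocounts of 1 and 0.1, 0.25 with the step, and -0.56 to 0.061 with 1 sample left out, positive without the 9 h downshift or the 1 or 6 h upshift sample).

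Over all genes the exon difference was called for 4786 genes, and for 2534 to 5425 under the alternatives. For exons in the downshift the number was 3286 (358 to 3810), in the upshift 3394 (622 to 3877) and for the sum 351 (0 to 897). For introns it was 161 (0 to 910) in the downshift, 203 (12 to 706) in the upshift and 692 (17 to 2131) for the difference, and for the ratio 313 (7 to 789), 545 (14 to 1064) and 1979 (308 to 2345). Of genes with a called intron difference 56.6% had a positive one, and 9.41% with the exon factors.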
